A study of Mus musculus with 7 samples.

Results

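The genes described here are 33 genes of cholesterol and fatty acid synthesis in LLC1, a mouse Lewis lung carcinoma line, chosen by symbol from a table of 24419 genes. They are 18 enzymes that turn acetyl-CoA into cholesterol, 6 genes that regulate this pathway or move sterols, and 9 genes of fatty acid synthesis, elongation and desaturation. Polyadenylated RNA was sequenced from 4 libraries with the genotype WT DDX54 (wild-type below) and from 3 libraries with the genotype DDX54 KD (knockdown below), in which an shRNA targets Ddx54, a nucleolar DEAD-box RNA helicase. Both groups are the same line grown in DMEM with 10% FBS. The text on the shRNA stands on the samples of both groups, and the labels name neither a control construct for the wild-type libraries nor a clone. Whether libraries of one group came from separate cultures is not stated, so the p-values measure the spread between these libraries, which may be technical. All 33 genes were in the table and all 33 passed the filter on low counts.

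Cholesterol is built from acetyl-CoA through mevalonate and farnesyl pyrophosphate to squalene, which is closed into lanosterol and then trimmed and desaturated into cholesterol. Fatty acids start from the same acetyl-CoA, which ATP citrate lyase makes in the cytosol, and are then extended by elongases and given double bonds by desaturases. SREBP transcription factors drive the genes of both routes: SREBP2 (Srebf2) mainly the sterol enzymes and SREBP1 (Srebf1) mainly the fatty acid enzymes. They are held in the endoplasmic reticulum by Scap and Insig proteins while sterols are plentiful, and proliferating tumour cells often run both routes at a high rate to make membrane.

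Levels are given in CPM, read counts scaled to the library total with TMM factors. Ddx54 was at 80.4, 82.5, 78.6 and 83.2 CPM in wild-type and 45.9, 39.2 and 45.8 CPM in knockdown, 53.8% of the wild-type level (adjusted p = 6.55e-09, log2 fold change -0.90 with SE 0.096; exact two-sided permutation p = 0.0286, the smallest that 35 splits allow), and no library went against its label. Library totals ranged from 14987324 to 18673395 counts, and the 33 genes took 0.224% to 0.240% of the counts in wild-type and 0.242% to 0.250% in knockdown. Rn45s, the ribosomal RNA precursor, took 10.7% to 12.5% of counts in wild-type and 7.96% to 9.07% in knockdown. It is counted in the totals behind the share of the 33 genes, and its part there and in the results below was not tested. On the TMM scale, knockdown sums of sterol enzymes were 125% of wild-type up to farnesyl pyrophosphate and 119.9% from squalene onward. They were 96.1% for the regulators and 91.2% for the fatty acid genes. Of 6 epithelial markers, the defining Epcam and Cdh1 averaged under 0.05 CPM in both groups and 2 of the 3 tested fell, Krt18 from 217 to 132 CPM and Krt19 from 4.39 to 1.08 CPM, while Krt8 did not pass. Of 5 mesenchymal markers, S100a4 rose from 2379 to 3181 CPM and Fn1 fell from 178 to 117 CPM. Vim, at 6255 and 5783 CPM, did not pass, with every knockdown library below the wild-type ones. Col1a1, at 0.788 and 0.304 CPM, did not pass, and Col1a2, at 0.403 and 1.03 CPM, was not tested. The sum of the 5, most of it Vim and S100a4, was 8681 to 9005 CPM in wild-type and 9073 to 9091 CPM in knockdown. The part of these markers in the results was not tested. The summed level of 6 leukocyte markers was 2.18 to 5.03 CPM in wild-type and 2.80 to 4.78 CPM in knockdown, most of it Cd68, with Cd3e at 0 in every library. Cdh5 and Tek, of the endothelial markers, and Adipoq and Plin1, of the adipocyte markers, had no count in any library, while Fabp4 fell from 3.78 to 1.22 CPM. The endothelial markers Kdr and Pecam1 had counts in some libraries. The endothelial sum was 0.178 to 0.784 CPM in wild-type and 0.0543 to 0.776 CPM in knockdown. The hepatocyte markers Apoa1, in every library, and Alb, in some, also had counts, at most 0.611 CPM.

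The lipid synthesis genes moved in both directions. In the knockdown libraries 9 of the 33 rose, 3 fell and 21 did not pass (edgeR quasi-likelihood test, adjusted p under 0.05). That is 27.3% higher and 9.09% lower, against a background of 14.1% higher and 15.3% lower among all 11594 tested genes. In either direction 36.4% of the members passed, against 29.4% of all genes. The members were chosen with earlier results of these data known, so these shares are a description only. The rises were Acat2, Hmgcs1, Lss, Cyp51, Hsd17b7 and Ebp among the sterol enzymes and Acly, Fasn and Elovl6 among the fatty acid genes. The falls were the desaturases Scd1 and Scd2 and the SREBP anchor Insig2. In bulk libraries a change in every cell and a change in the make-up of the culture cannot be told apart. The median log2 fold change of the 33 genes was 0.15, against 0.001 for all tested genes, and it was 0.075 without wild-type replicate 3. Ranges of the groups did not overlap for 17 members, 12 with knockdown above (17.5% of all genes) and 5 with knockdown below (17.6% of all genes).

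**Figure D1:**
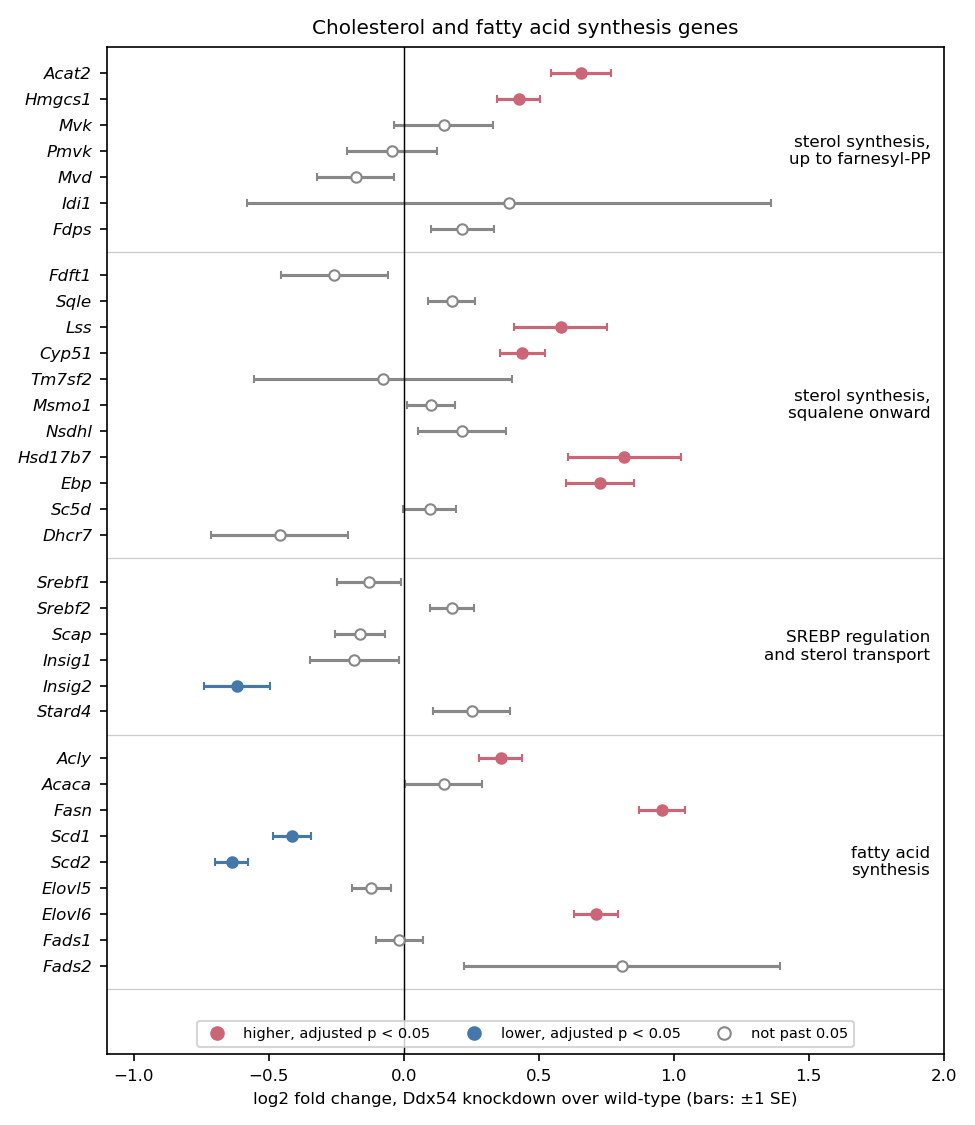
Log2 fold change (x axis) of each of the 33 genes (y axis), in pathway order, with bars of 1 SE; filled points passed an adjusted p of 0.05. The 9 filled points on the right lie between 0.36 (Acly) and 0.96 (Fasn), and the 3 on the left are Insig2, Scd1 and Scd2.

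Promoter sequences are shown for 4 of the changed genes: Hmgcs1, the only one of the 26 members with a promoter entry that has a sterol regulatory element match; Fasn, the largest rise; Ebp, a late sterol enzyme that rose; and Insig2, the regulator that fell. Each is the 250 bases before an annotated RefSeq start site on GRCm38.p6, read 5′ to 3′ on the gene's strand. Capitals mark matches, on either strand, to the sterol regulatory element TCACNCCAC and to the CCAAT box bound by NF-Y, a usual partner of SREBPs, which reads ATTGG when it lies on the other strand. The windows are chr13:119690101-119690350, plus strand for Hmgcs1, chr11:120824548-120824797, minus strand for Fasn, chrX:8193513-8193762, minus strand for Ebp and chr1:121332590-121332839, minus strand for Insig2, where it is the outermost of 3 start sites and the one at which GENCODE M21 begins the gene.
Hmgcs1: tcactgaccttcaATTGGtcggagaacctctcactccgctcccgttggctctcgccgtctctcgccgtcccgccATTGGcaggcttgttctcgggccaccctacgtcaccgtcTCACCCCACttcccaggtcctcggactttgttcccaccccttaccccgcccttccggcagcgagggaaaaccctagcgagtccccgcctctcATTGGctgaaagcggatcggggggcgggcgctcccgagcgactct
Fasn: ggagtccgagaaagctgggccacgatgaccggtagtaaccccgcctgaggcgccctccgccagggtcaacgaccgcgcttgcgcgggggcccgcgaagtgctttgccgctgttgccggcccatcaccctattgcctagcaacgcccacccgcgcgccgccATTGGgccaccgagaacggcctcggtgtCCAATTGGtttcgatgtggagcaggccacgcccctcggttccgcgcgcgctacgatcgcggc
Ebp: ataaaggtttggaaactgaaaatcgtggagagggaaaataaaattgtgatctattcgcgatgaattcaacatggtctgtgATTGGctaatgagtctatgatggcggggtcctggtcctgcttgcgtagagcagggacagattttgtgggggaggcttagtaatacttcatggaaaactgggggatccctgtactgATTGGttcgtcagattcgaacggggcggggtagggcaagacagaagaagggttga
Insig2: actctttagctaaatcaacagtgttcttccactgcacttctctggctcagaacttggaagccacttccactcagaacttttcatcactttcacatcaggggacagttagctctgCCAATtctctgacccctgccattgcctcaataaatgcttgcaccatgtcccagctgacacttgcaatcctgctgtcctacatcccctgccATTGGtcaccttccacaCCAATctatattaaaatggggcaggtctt

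The sterol regulatory element of Hmgcs1 began 137 bases before the start site and lay between CCAAT boxes that began at 176 and 45 bases before it. Of the 26 members with a promoter entry, Hmgcs1 alone held TCACNCCAC, and 1.22% of all 27025 genes with an entry did. The SREBP E-box TCACNTGA was found in 1 member, Insig2, at its innermost start site, and in 3.98% of all genes. A CCAAT box stood in at least 1 window of 20 of the 26 members, against 37.5% of all genes: 6 of the 9 that rose, the 1 that fell with an entry (Insig2), and 13 of the 16 that did not pass. Fasn had 3 CCAAT matches, of which the pair nearest the start site overlap in the letters CCAATTGG. The GC box GGGCGG stood in 21 of the 26, against 35.4% of all genes. CCAAT boxes stood both in members that rose and in members that did not pass. Only these exact letters were searched, with N for any base, so a member without a match may hold another form of an element. A match is a description of letters in this window only, and the genes' windows differ in number.

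The first steps of sterol synthesis lead from acetyl-CoA to farnesyl pyrophosphate. Of the 7 genes of this stretch, 2 rose (28.6%, against 14.1% of all tested genes) and 5 did not pass. Acat2, the cytosolic thiolase that joins acetyl-CoA units (chromosome 17, 12942890 to 12960747, minus strand, GENCODE M21 on GRCm38), was at 43.3, 41.2, 36.5 and 35.8 CPM in wild-type and 62.5, 54.8 and 68.3 CPM in knockdown. All 3 knockdown libraries lay above all 4 wild-type libraries, and the mean rose to 158% of wild-type (adjusted p = 2.15e-05, log2 fold change 0.66 with SE 0.11). Hmgcs1, which makes HMG-CoA (chromosome 13, 119690379 to 119708260, plus strand), was at 134, 131, 116 and 153 CPM in wild-type and 167, 185 and 187 CPM in knockdown. It rose to 134% of wild-type with no overlap between the groups (adjusted p = 8.42e-05, log2 fold change 0.43 with SE 0.08). Acat2 shares 39.1% of its 50-base runs with the neighbouring paralog Acat3, which was listed at only 0.338 ± 0.381 and 0.513 ± 0.0333 CPM, and 10.0% of the runs of Hmgcs1 also occur in an antisense transcript; the part of either was not tested.

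The other 5 genes of this stretch did not pass. Mvk, mevalonate kinase, had 13.03, 16.4, 11.2 and 16.6 against 17.4, 15.7 and 14.5 CPM, with overlapping groups (adjusted p = 0.603, log2 fold change 0.15 with SE 0.18). Pmvk, the next kinase, and Mvd, the decarboxylase that makes isopentenyl pyrophosphate, had log2 fold changes of -0.04 (SE 0.17) and -0.18 (SE 0.14), and in both the wild-type libraries spread more widely than the knockdown ones. Wild-type Mvd ran from 29.2 to 46.7 CPM, a span that held 2 of the 3 knockdown values. Fdps, which makes farnesyl pyrophosphate, was at 48.1, 42.2, 36.99 and 35.5 CPM in wild-type and 47.1, 48.5 and 46.4 CPM in knockdown. The knockdown values stood close together and within the wild-type range, apart from the highest, and the gene did not pass (adjusted p = 0.175, log2 fold change 0.22 with SE 0.12); 23.4% of its 50-base runs also occur in the overlapping gene model Gm43738. Idi1, which isomerizes isopentenyl pyrophosphate, had only 0 to 35 reads per library, and a change of the estimated size did not pass (adjusted p = 0.809, log2 fold change 0.39 with SE 0.97).

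From squalene onward 4 of 11 genes rose (36.4%, against 14.1% of all tested genes) and 7 did not pass. The committed steps came first and did not pass. Fdft1, squalene synthase, was at 17.2, 14.4, 12.5 and 13.3 CPM in wild-type and 11.99, 14.9 and 9.11 CPM in knockdown, with overlapping groups (adjusted p = 0.363, log2 fold change -0.26 with SE 0.2). Ctsb, which overlaps it on the other strand and holds 17.2% of its 50-base runs, fell from 288 ± 9.36 to 241 ± 11.9 CPM (adjusted p = 0.00222), and its part in the Fdft1 value was not tested. Sqle, squalene epoxidase, was at 71.1, 78.6, 87.5 and 87.9 CPM in wild-type and 91.2, 91.01 and 93.5 CPM in knockdown. Its knockdown libraries all lay above its wild-type ones, but by little, and the test was not passed (adjusted p = 0.133, log2 fold change 0.18 with SE 0.088).

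The next enzymes, which close and first trim the ring, rose. Lss, which folds squalene epoxide into lanosterol (chromosome 10, 76531588 to 76557138, plus strand), was at 11.8, 14.5, 15.2 and 15.04 CPM in wild-type and 17.8, 20.4 and 25.2 CPM in knockdown. It rose to 149.7% of wild-type (adjusted p = 0.0093, log2 fold change 0.58 with SE 0.17), and the call was lost without knockdown replicate 3, its highest library (log2 fold change 0.44, adjusted p = 0.123). Cyp51, lanosterol demethylase (chromosome 5, 4081145 to 4104746, minus strand), was at 94.7, 85.2, 82.3 and 88.4 CPM in wild-type and 129.9, 106 and 121 CPM in knockdown and rose to 136% (adjusted p = 0.000109, log2 fold change 0.44 with SE 0.083). The groups of both genes stood apart. Akap9, which overlaps Cyp51 on the other strand, was also higher, from 65.1 ± 13.1 to 88.7 ± 5.66 CPM (adjusted p = 0.00563, log2 fold change 0.45 with SE 0.12); 2.63% of the 50-base runs of Cyp51 occur in it, and its part in the Cyp51 value was not tested.

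The largest rises among the 18 sterol enzymes were those of Hsd17b7 and Ebp, which act late. Hsd17b7, the ketosteroid reductase of C4 demethylation (chromosome 1, 169949535 to 169969241, minus strand), was at 6.43, 9.51, 13.3 and 11.4 CPM in wild-type and 21.5, 15.7 and 16.5 CPM in knockdown. The wild-type values spread over a wide range, yet all 3 knockdown values exceeded them (176% of wild-type, adjusted p = 0.00279, log2 fold change 0.82 with SE 0.21). Without knockdown replicate 1, its highest library, Hsd17b7 passed only narrowly (log2 fold change 0.66, adjusted p = 0.0485). Ebp, the sterol isomerase (chromosome X, 8185329 to 8193512, minus strand), was at 23.4, 29.5, 27.8 and 25.6 CPM in wild-type and 46.9, 39.1 and 45.99 CPM in knockdown. It rose to 166% (adjusted p = 2.91e-05, log2 fold change 0.73 with SE 0.13), and neither gene overlaps another in GENCODE M21 or shares a 50-base run with one.

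Their partners in the same stretch did not pass. Msmo1 and Nsdhl, which act with Hsd17b7 in C4 demethylation, had 103, 90.3, 80.1 and 80.6 against 97.3, 90.8 and 96.8 CPM and 17.5, 20.4, 14.4 and 20.2 against 18.4, 22.4 and 22.5 CPM, with log2 fold changes of 0.10 (SE 0.089) and 0.22 (SE 0.16). Sc5d, the desaturase after Ebp, was at 72.3, 59.8, 66.7 and 78.98 CPM in wild-type and 68.6, 74.6 and 79.7 CPM in knockdown, and its groups overlapped (adjusted p = 0.509, log2 fold change 0.10 with SE 0.098). Dhcr7, the last reductase before cholesterol in one branch, was at 8.67, 7.27, 8.04 and 7.87 CPM in wild-type and 6.68, 6.19 and 4.49 CPM in knockdown. It was the only sterol enzyme whose knockdown libraries all lay below the wild-type ones, and it did not pass (adjusted p = 0.185, log2 fold change -0.46 with SE 0.25). Tm7sf2, a sterol reductase with 29 to 55 reads per library, had overlapping groups (adjusted p = 0.932, log2 fold change -0.08 with SE 0.48). The summed CPM of the 11 late enzymes was 428, 412, 410.1 and 432 in wild-type and 513, 483 and 517 in knockdown, a mean of 119.9% of wild-type, and that of the 7 early ones was 298, 296, 246 and 307 in wild-type and 346, 362 and 369 in knockdown, a mean of 125%.

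**Figure D2:**
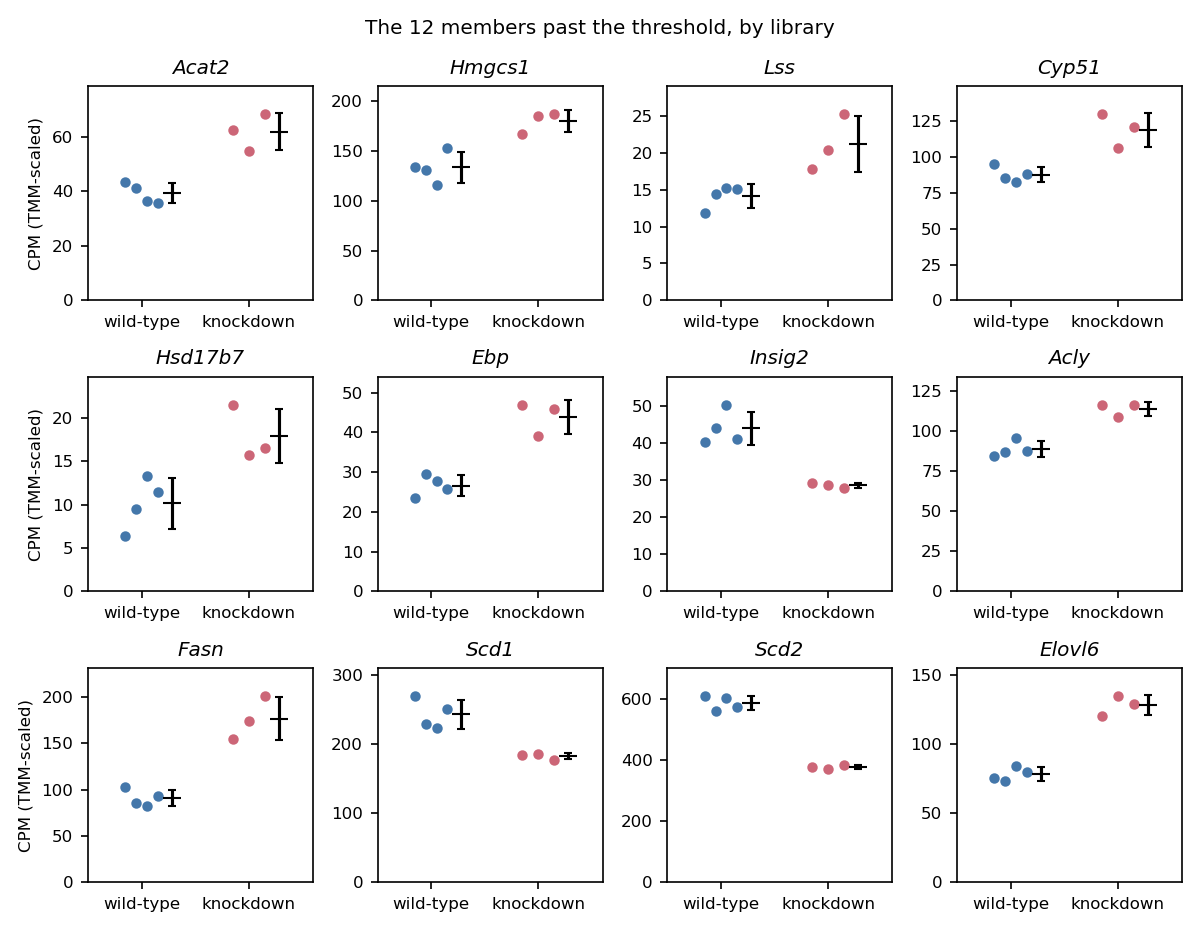
TMM-scaled CPM (y axes, from 0) of the 12 genes that passed, in the 4 wild-type (blue) and 3 knockdown (red) libraries, with mean and SD in black. In each of the 12 panels the points of the groups do not overlap, as in Fasn, at 82.9 to 103 CPM in wild-type and 155 to 201 CPM in knockdown.

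Among the 6 regulators, 1 fell (16.7%, against 15.3% of all tested genes) and 5 did not pass. Insig2, which holds the Scap-SREBP complex in the endoplasmic reticulum (chromosome 1, 121304353 to 121332589, minus strand), was at 40.3, 43.9, 50.2 and 41.1 CPM in wild-type and 29.3, 28.6 and 27.9 CPM in knockdown. The knockdown libraries agreed closely and all lay well below the wild-type ones, at 65.2% of their mean (adjusted p = 0.000181, log2 fold change -0.62 with SE 0.12). Insig1, which does the same work and is itself an SREBP target, was at 28.7, 25.7, 21.3 and 16.8 CPM in wild-type and 18.97, 20.2 and 22.1 CPM in knockdown. Its wild-type libraries ran from 16.8 to 28.7 CPM and enclosed all knockdown values (adjusted p = 0.451, log2 fold change -0.18 with SE 0.17). Insig2 was between 1.40 and 2.44 times Insig1 in wild-type on the CPM scale and between 1.27 and 1.54 times in knockdown, so the ratios of the groups overlap.

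The transcription factors and their escort did not pass. Srebf2 was at 103, 109, 90.2 and 111 CPM in wild-type and 120.0, 116 and 115 CPM in knockdown, with all knockdown values above the wild-type ones and a test that was not passed (adjusted p = 0.0961, log2 fold change 0.18 with SE 0.081). Srebf1 was at 43.1, 37.4, 47.5 and 40.9 CPM in wild-type and 36.9, 42.1 and 36.8 CPM in knockdown, with overlapping groups (adjusted p = 0.459, log2 fold change -0.13 with SE 0.12). Scap, the sterol-sensing escort of SREBPs, was at 87.8, 72.2, 78.6 and 89.2 CPM in wild-type and 72.3, 72.1 and 75.5 CPM in knockdown, with overlapping groups (adjusted p = 0.194, log2 fold change -0.16 with SE 0.091). Stard4, a sterol carrier that SREBP2 induces, was at 20, 24.5, 23.7 and 23.1 CPM in wild-type and 26.4, 30.2 and 24.8 CPM in knockdown. Here too the knockdown values stood above all wild-type ones without passing (adjusted p = 0.196, log2 fold change 0.25 with SE 0.14). Transcript levels say nothing of how much SREBP was cleaved or in the nucleus.

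Among the fatty acid genes 3 of 9 rose, 2 fell and 4 did not pass. That is 33.3% higher and 22.2% lower, against 14.1% and 15.3% of all tested genes. Acly, ATP citrate lyase, which supplies cytosolic acetyl-CoA (chromosome 11, 100476353 to 100528000, minus strand), was at 84.1, 86.7, 95.7 and 87.6 CPM in wild-type and 116, 108 and 116 CPM in knockdown, and rose to 128% of wild-type (adjusted p = 0.000655, log2 fold change 0.36 with SE 0.079). Acaca, acetyl-CoA carboxylase, the next enzyme, was at 31.2, 21.7, 23.1 and 24.7 CPM in wild-type and 27.4, 28.5 and 27.9 CPM in knockdown. The knockdown values of Acaca lay inside the wild-type range (adjusted p = 0.483, log2 fold change 0.15 with SE 0.14), and 29.2% of its 50-base runs occur in the gene model Gm5182, which is not a row of the table. Fasn, fatty acid synthase, which builds palmitate (chromosome 11, 120805846 to 120824547, minus strand), was at 103, 85.4, 82.9 and 93.2 CPM in wild-type and 155, 174 and 201 CPM in knockdown. It had the largest fold change of the 12 that passed, 194% of the wild-type mean (adjusted p = 1.46e-10, log2 fold change 0.96 with SE 0.085), with no overlap. Elovl6, which lengthens palmitate to stearate (chromosome 3, 129532355 to 129638495, plus strand), was at 75.3, 73.1, 84.3 and 80.05 CPM in wild-type and 121, 135 and 129 CPM in knockdown and rose to 164% (adjusted p = 1.73e-08, log2 fold change 0.71 with SE 0.08).

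The stearoyl-CoA desaturases, which put the first double bond into palmitate and stearate, went the other way. Scd2 (chromosome 19, 44293674 to 44306864, plus strand) was at 609.8, 561, 604 and 573 CPM in wild-type and 379, 369.8 and 384 CPM in knockdown. The groups were far apart, each with a narrow spread, and Scd2 fell to 64.3% of wild-type (adjusted p = 4.69e-10, log2 fold change -0.64 with SE 0.06). Scd1, its neighbour in the same cluster (chromosome 19, 44394455 to 44407879, minus strand), was at 270.3, 229.8, 224 and 251 CPM in wild-type and 184, 187 and 178 CPM in knockdown, and fell to 75.0% (adjusted p = 2.33e-05, log2 fold change -0.42 with SE 0.071). These genes shared at most 4.56% of their 50-base runs with any other gene, and the remaining copies Scd3 and Scd4 averaged under 0.13 CPM in both groups. The summed CPM of all 9 fatty acid genes was 91.2% of wild-type. Scd1 and Scd2 together summed to 880.0, 791, 828 and 824 in wild-type and 563, 556 and 561 in knockdown, and the other 7 genes to 518, 515, 511 and 505 in wild-type and 638, 671 and 684 in knockdown, a mean of 129.7%. The desaturase pair exceeded the other 7 genes in every wild-type library and lay below them in every knockdown library. The pair is exactly the part of the list that fell, and the other 7 genes also hold desaturases. The contrast thus depends on how the sums were split, and it is given with no test.

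The genes of polyunsaturated fatty acids did not pass. Elovl5, which extends polyunsaturated chains, was at 142, 151, 135 and 138 CPM in wild-type and 129.6, 133 and 128 CPM in knockdown, a small difference without overlap (adjusted p = 0.23, log2 fold change -0.12 with SE 0.072). Fads1, the delta-5 desaturase, was at 81.5, 96.2, 89.5 and 79.6 CPM in wild-type and 86.6, 90.5 and 79.8 CPM in knockdown, with means that all but coincide (adjusted p = 0.918, log2 fold change -0.02 with SE 0.088). Fads2, the delta-6 desaturase, had 11 to 49 reads per library and 1.58, 0.747, 1.11 and 1.72 against 2.92, 1.68 and 2.21 CPM. Its groups overlapped and its error was wide (adjusted p = 0.331, log2 fold change 0.81 with SE 0.58), and a change of this size did not pass.

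Ratios of 2 genes within a library need no scaling between libraries, and are given for fatty acid synthase over each desaturase and for the elongases Elovl6 and Elovl5. Fasn over Scd2 on the CPM scale was 0.168, 0.152, 0.137 and 0.163 in wild-type and 0.41, 0.471 and 0.524 in knockdown, a mean going from 0.155 ± 0.0137 to 0.468 ± 0.0574. The ratio of Fasn to Scd1 was 0.38, 0.371, 0.37 and 0.371 in wild-type and 0.842, 0.934 and 1.13 in knockdown. Elovl6 over Elovl5 was 0.532, 0.486, 0.626 and 0.578 in wild-type and 0.93, 1.02 and 1.01 in knockdown. In each of these 3 ratios the knockdown libraries lay above all wild-type ones. The pairs were chosen after their values were seen, so the ratios are given with no test.

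**Figure D3:**
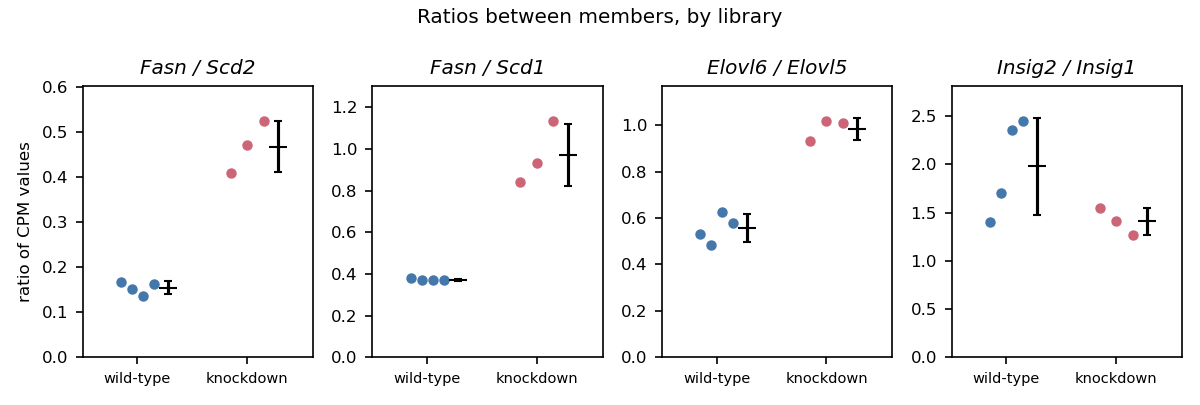
Ratios of CPM values (y axes, from 0) for 4 pairs of members in each wild-type (blue) and knockdown (red) library, with mean and SD in black. The first 3 ratios separate the groups, as in Fasn over Scd2, below 0.17 in wild-type and above 0.40 in knockdown, while Insig2 over Insig1 overlaps.

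Levels of different genes were compared per kilobase of annotated exon. In wild-type Scd2 stood first at 107 ± 4.34 CPM per kb (SD, n = 4), then Scd1 at 49.8 ± 4.31 and Elovl5 at 40.1 ± 1.94. Hmgcs1 came next at 29.0 ± 3.34, the highest level of a sterol enzyme, followed by Cyp51 at 19.9 ± 1.21 and Mvd at 19.7 ± 4.41, which do not differ beyond their spread. In knockdown Scd2 was still first at 69.1 ± 1.29 (SD, n = 3), while Hmgcs1 at 39.0 ± 2.41, Scd1 at 37.4 ± 0.937 and Elovl5 at 36.9 ± 0.707 stood within their spread of each other. Fasn moved from rank 20 to rank 14 of the 33, from 8.32 ± 0.812 to 16.2 ± 2.12 CPM per kb. At the bottom in both groups were Tm7sf2, Fads2 and Idi1, at 0.553 ± 0.0524, 0.391 ± 0.135 and 0.208 ± 0.262 CPM per kb in wild-type. Exon lengths come from GENCODE M21, and the annotation used for the deposited counts is not given in the sources used here, so levels per length are approximate.

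**Figure D4:**
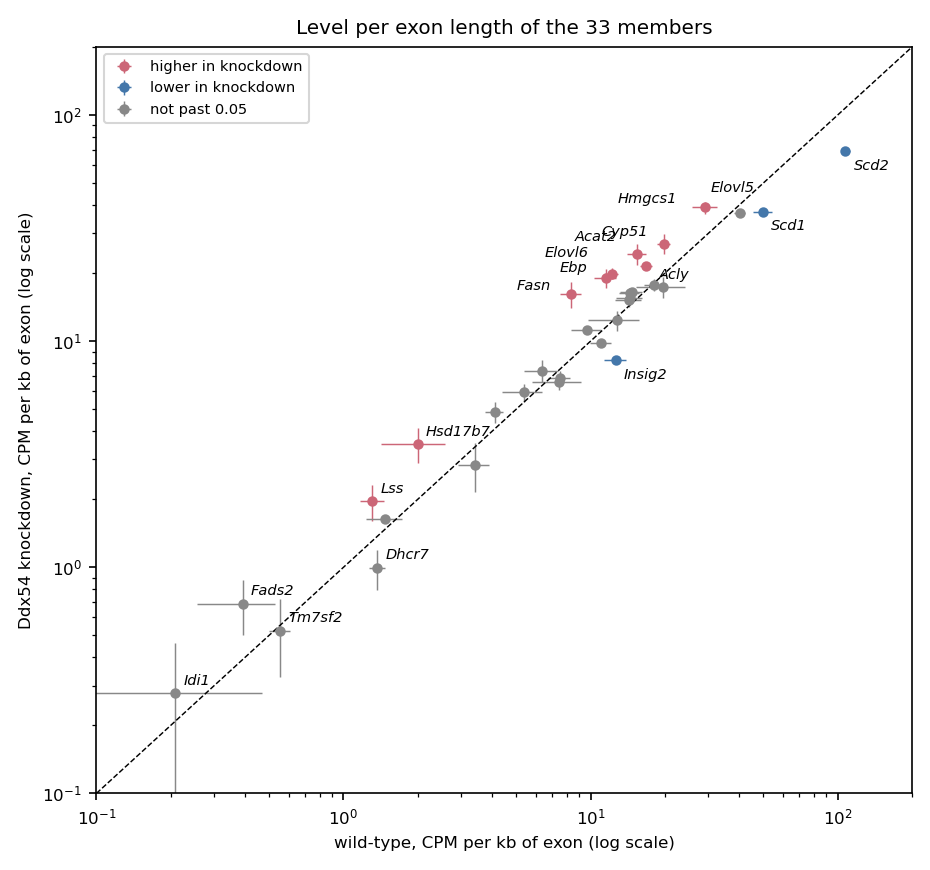
Mean CPM per kb of exon in wild-type (x axis) and knockdown (y axis), both on log scales, for the 33 genes; bars are SD, run to the axis edge for Idi1, and the dashed line marks equal levels. Scd2 lies top right and below the line, at 107 against 69.1, and Fasn lies above it, at 8.32 against 16.2.

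Other genes of lipid metabolism were read from 6 lists with 126 tested genes, of which 12 rose (9.52%, against 14.1% of all genes) and 20 fell (15.9%, against 15.3%). These lists, too, were chosen with earlier results of these data known. Each call was also run under 14 alternative fits: other scalings, filters and tools, a replicate block, and each library left out. Fatty acid oxidation had 0 of 25 higher and 5 lower (20%), with a median log2 fold change of -0.16. Echs1, the enoyl-CoA hydratase of mitochondrial oxidation, fell from 44.3 ± 2.89 to 25.9 ± 5.37 CPM (adjusted p = 2.91e-05, log2 fold change -0.77 with SE 0.13), and Ppard, a fatty acid sensor, fell from 34.05 ± 6.11 to 22.6 ± 1.93 CPM (-0.59). Etfa (-0.51) and Acadvl (-0.40) fell as well. Acadvl lost its call without knockdown replicate 3 (adjusted p up to 0.0939 over these settings) and when the replicate number was a blocking term.

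Sterol transport, storage and efflux had 3 of 24 higher (12.5%) and 8 lower (33.3%), with a median of -0.16. Over all tested genes 14.1% were higher and 15.3% lower. Vldlr, a lipoprotein receptor, was at 24.3, 21.9, 21.5 and 18.2 CPM in wild-type and 7.22, 9.99 and 5.399 CPM in knockdown, without overlap (adjusted p = 4.17e-07, log2 fold change -1.50 with SE 0.2). Soat2, which esterifies cholesterol, fell from 2.83 ± 1.22 to 0.669 ± 0.173 CPM (adjusted p = 0.0104, log2 fold change -2.07 with SE 0.62). Soat1, the other enzyme of that step, named here after its values were seen, stood far higher and rose from 119 ± 9.73 to 137 ± 5.01 CPM (adjusted p = 0.041, log2 fold change 0.21 with SE 0.077). It did not pass with upper-quartile factors, without wild-type replicate 1 or without any one knockdown library (adjusted p from 0.0338 to 0.162). Abca1, the cholesterol exporter, fell from 1.51 ± 0.542 to 0.264 ± 0.304 CPM (adjusted p = 0.0405, log2 fold change -2.45 with SE 0.91), and its call was lost under 7 of the 13 settings that tested it, with adjusted p from 0.0110 to 0.165. Soat2 lost its call, with adjusted p from 0.000735 to 0.0703, under the replicate block and without wild-type replicate 4. Scarb2, a lysosomal membrane protein, was higher (0.63, adjusted p = 0.0286) and lost that status under the replicate block and without wild-type replicate 1 or 4 or knockdown replicate 1 or 2.

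In the list of fatty acid activation and glycerolipid synthesis 2 of 27 rose and 5 fell, with a median of 0. That is 7.41% higher and 18.5% lower, against 14.1% and 15.3% of all tested genes. Plin2, the coat protein of lipid droplets, was at 123, 114, 101 and 115 CPM in wild-type and 56.98, 53.5 and 49.1 CPM in knockdown. It fell to 46.9% of wild-type, with no overlap (adjusted p = 2.62e-11, log2 fold change -1.09 with SE 0.09). Acsl5, an acyl-CoA synthetase, rose from 83.8 ± 5.05 to 118 ± 5.29 CPM (adjusted p = 9.75e-06, log2 fold change 0.50 with SE 0.08), while Acsl6 (-0.52) and Agpat9 (-0.54) fell, each with calls that 5 or 6 of the 14 settings ended. Other fatty acid synthesis and elongation had 1 of 18 higher and 1 lower (5.56% each), with a median of 0.077. Acss2, which makes acetyl-CoA from acetate and is an SREBP target, was at 15.6, 9.98, 14.3 and 12.2 CPM in wild-type and 4.18, 3.26 and 7.94 CPM in knockdown, and fell (adjusted p = 0.000134, log2 fold change -1.35 with SE 0.26), opposite to Acly. Hsd17b12, the reductase of the elongation cycle, rose by a small amount (0.24, adjusted p = 0.00972), a call lost without knockdown replicate 1.

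Isoprenoid branches, which draw on farnesyl pyrophosphate, had 4 of 16 higher and 0 lower, with a median of 0.18. That is 25% higher, against 14.1% of all tested genes, of which 15.3% were lower. The 4 were Pdss1 of ubiquinone synthesis (1.02), Dpagt1 of dolichol-linked glycosylation (0.40), the prenyl-protein protease Zmpste24 (0.32) and the Rab geranylgeranyl transferase subunit Rabggtb (0.29). Pdss1, at 2.84 ± 1.41 and 5.798 ± 0.716 CPM, did not pass without wild-type replicate 2 or without any one knockdown library. Zmpste24 and Rabggtb lost their calls without knockdown replicate 3. Dpagt1 passed in all 14 settings. SREBP processing and sterol-regulated degradation had 2 of 16 higher (12.5%), Erlin2 (0.40) and Nploc4 (0.38). In that list 1 was lower (6.25%), Pgrmc1 (-0.35), and the median was -0.027. Each of these 3 calls was lost under the replicate block and when at least 2 of the libraries were left out singly.

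**Figure D5:**
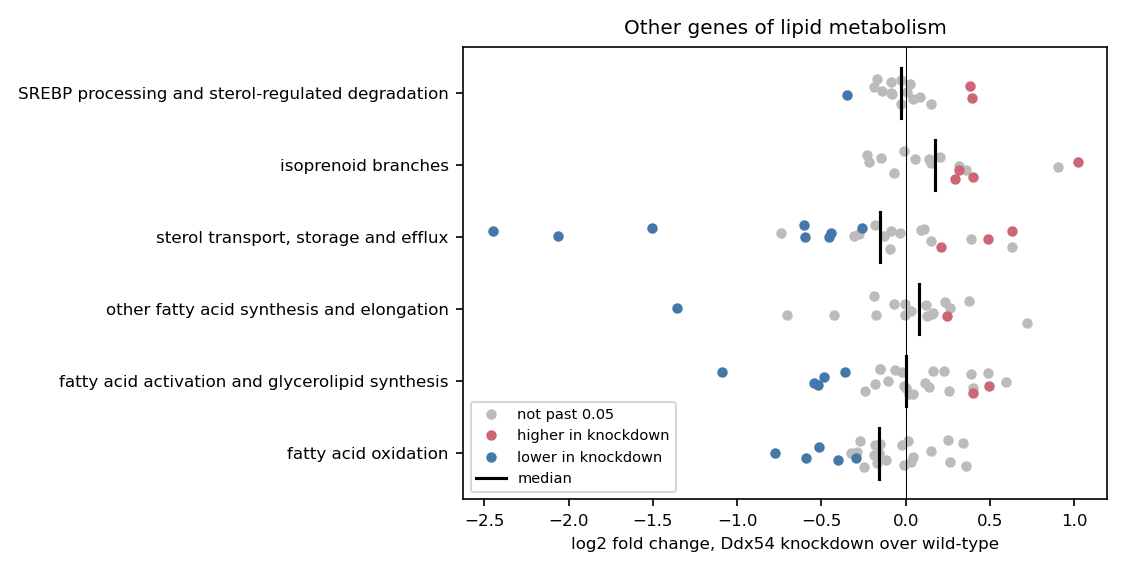
Log2 fold changes (x axis) of the tested genes of 6 lists of lipid metabolism (y axis); red and blue points passed an adjusted p of 0.05 and black lines are list medians. The 5 of 25 fatty acid oxidation genes that passed (20%, against 29.4% of all tested genes) are all blue, and the leftmost points are Abca1, Soat2 and Vldlr.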

How the data were processed

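Raw read counts per gene symbol were deposited by the authors in one table, and the submitters' processing notes list Trimmomatic, STAR, HTSeq and mm10 without roles or versions. How multi-mapping reads and strand were treated, and on which annotation, is not given in the sources used here, and values of genes with near-identical copies or antisense partners are uncertain. Counts were fitted with edgeR 4.0.16 in R 4.3.3 (filterByExpr, TMM factors, robust quasi-likelihood test, no covariate, Benjamini-Hochberg over 11594 genes, threshold 0.05). The SE was taken from the fold change and the F statistic. CPM values are scaled by TMM factors and given as mean ± SD, n = 4 and n = 3. The test was first run on simulated data of 11407 genes with known changes. Of these genes, drawn at random at any level, 68 changed by 0.5, 66 by 1 and 64 by 2 on the log2 scale. It recovered 41.2% of log2 changes of 0.5, 81.8% of those of 1 and 98.4% of those of 2. Of the unchanged genes it called 0.0268%. Changes of 0.5 or less can thus fail to pass. In the real data 29.4% of genes passed, a far larger share than was changed in the simulation. The recovery rates may therefore not hold for these data or for the levels of the members. Positions, exon lengths and shared 50-base runs come from GENCODE M21, and promoters from RefSeq on GRCm38.p6, for 26 of 33 members. The members and lists were chosen with earlier results of these data known. All members could be named, and from each list up to 4 past the threshold with the largest change, or the 2 of smallest p where fewer than 2 passed; Acat3, Akap9, Ctsb, Gm5182, Rn45s, Scd3, Scd4 and Soat1 were added after their values were seen. The table has 0 further sample columns and 0 rows that name no gene. Alternatives were a blocking term for replicate number, limma-voom (limma 3.58.1), DESeq2 1.42.0, RLE and upper-quartile factors, no filter, a filter of 50 counts in 3 libraries, and leaving out each library. No pair of libraries in a group agreed within sampling noise (chi-square per degree of freedom 8.31 to 16.3).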

Additional observations from a re-analysis of the deposited data

How the results depend on the processing

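Of the 12 members that passed, all 12 kept their call and direction under each of the 14 settings except Lss, which lost it without knockdown replicate 3. No further member passed under any setting, and at least 50 counts in at least 3 libraries left 30 members to test, without Idi1, Tm7sf2 and Fads2. Members higher numbered 8 to 9 and members lower 3. The Ddx54 log2 fold change ranged from -0.93 to -0.83. The median log2 fold change of the members was 0.075 to 0.17 when single libraries were left out, lowest without wild-type replicate 3. Over the 6 lists of other lipid genes, 6 to 13 genes were higher when single libraries were left out, against 12 with all; the count was 6 without knockdown replicate 1 and 7 without knockdown replicate 3. Genes lower in these lists numbered 14 to 23. With the replicate number as a block, 9 members were higher and 3 lower, and over all genes 1375 were higher and 1487 lower, against 1635 and 1770. Same-numbered libraries did not deviate together (correlations of -0.041, -0.021 and -0.011 across genes), so the numbers were not taken as pairs. Depth limits the precision of Idi1, Fads2 and Tm7sf2, at fewer than 60 reads in each library.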

Other observations

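Idi1 stood apart from the rest of its pathway in level. It was the only member with no read in some libraries (wild-type 2 and 3), at 1.91, 0, 0 and 1.01 CPM in wild-type and 0.835, 1.68 and 0.39 CPM in knockdown, while its neighbours in the pathway, Mvd and Fdps, were between 28.3 and 48.5 CPM in every library. Of the distinct 50-base runs of its transcripts, 25.3% also occur in another gene, 17.7% in the gene model Gm13502. Fdps shared 26.2% of its runs with other genes and Fdft1 26.5%, and both were counted at over 100 reads in every library. These cases are not alike: Gm43738 overlaps Fdps and Ctsb overlaps Fdft1, while Gm13502 does not overlap Idi1. Whether shared sequence bears on the Idi1 count was not tested.

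Among the 4 wild-type libraries, 36 quantities (33 members, Ddx54, library totals and the members' share of counts) were searched for 1 outlying library (Dixon's test), and 0 were found, where chance gives about 1.8.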
